A study of Mus musculus with 4 samples.

Results

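The 9 genes described here encode proteins that carry retinoids in the cell, make retinoic acid from retinol, break it down or respond to it: Stra6, Crabp1, Crabp2, Rdh10, Dhrs9, Aldh1a2, Aldh1a3, Cyp26b1 and Rarg. They were chosen by name for their place in the pathway, with earlier results of these data known. All 9 were found among the 54752 gene identifiers of the RNA-seq tables. The libraries came from the epidermis of C57BL/6 mouse pups at postnatal day 0, with 2 pups in each of 2 groups. In Skiv2l fl/fl K14-Cre pups both Skiv2l alleles were floxed. Cre recombinase was expressed from the keratin 14 promoter, which is active in basal keratinocytes. The paper describes the knockout as specific to keratinocytes, so that cells which do not arise from keratinocytes would keep the gene. Skiv2l is the RNA helicase that feeds transcripts to the cytoplasmic RNA exosome. The Skiv2l ctl pups were littermates that were fl/fl, fl/+ or fl/+ with K14-Cre. All of these carry at least 1 floxed allele, and which of them each control library came from was not given, so a control may carry Cre and a single deleted allele. The mutant pups die within a day of birth, so the libraries hold only this early age.

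Retinol enters cells from the circulation, through the receptor STRA6 in some tissues, and is held in the cytoplasm by cellular retinol-binding proteins. Alcohol and short-chain dehydrogenases oxidize it to retinal, a reversible step, and retinal dehydrogenases then oxidize retinal irreversibly to retinoic acid. Cellular retinoic acid-binding proteins carry the product, CYP26 enzymes hydroxylate and so clear it, and heterodimers of the receptors RAR and RXR bind it at target genes. In epidermis, retinoids are known for their effects on keratinocyte growth and terminal differentiation, and RARγ and RXRα are the prevailing receptors of this tissue.

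Skiv2l itself was at 19.3 and 19.1 FPKM in the control libraries and at 10.8 and 8.55 FPKM in the mutant libraries, a log2 fold change of -0.92 ± 0.12 (SE; adjusted p = 0.00368, limma). This level covers the whole gene and not the floxed part alone, so it does not measure how complete the deletion was. By Western blot, the paper reported depletion of SKIV2L protein in the epidermis of newborn pups of this genotype. FPKM is the fragment number corrected for transcript length and library size, so levels of different genes can be set side by side. Fold changes here are mutant minus control on the log2(FPKM + 1) scale, which understates changes of low genes, and a gene was called at an adjusted p under 0.05 over all 13609 protein-coding genes tested. The 4 libraries held between 5.84 and 6.27 gigabases of aligned sequence. Over all tested genes 1223 were called higher, or 8.99%, and 3455 lower, or 25.4%, and the median log2 fold change was -0.20. After each library was brought to one common median FPKM (median scaling), 1894 were called higher and 1623 lower, so that the calls higher made up 53.9% of all calls in place of 26.1%. Each p-value sets the group difference against the spread between these pups, which limma moderates with that of the other genes. An exact permutation test of 2 against 2 could not go below p = 0.33. For the same reason, 2 against 2 libraries of like groups fail to overlap in 0.33 of cases. The share of all tested genes without overlap was not counted, so a lack of overlap is given below as a description.

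Of the 9 genes, 6 reached the level for testing, more than 0.5 FPKM in at least 1 library. Crabp2, Dhrs9 and Aldh1a3 were called higher in the Skiv2l fl/fl K14-Cre epidermis, Rarg was called lower, and Rdh10 and Cyp26b1 were not called. Of all genes tested, 8.99% were called higher and 25.4% lower. Aldh1a3 passed the level for testing only through the mutant libraries, where it was high, so the count of calls over the 6 is a description. Stra6, Crabp1 and Aldh1a2 stayed under the level and entered only the fit with no filter on low values, which called none of them. Among the tested genes, Aldh1a3 had the 29th highest log2 fold change, Dhrs9 the 55th and Crabp2 the 245th.

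**Figure D1:**
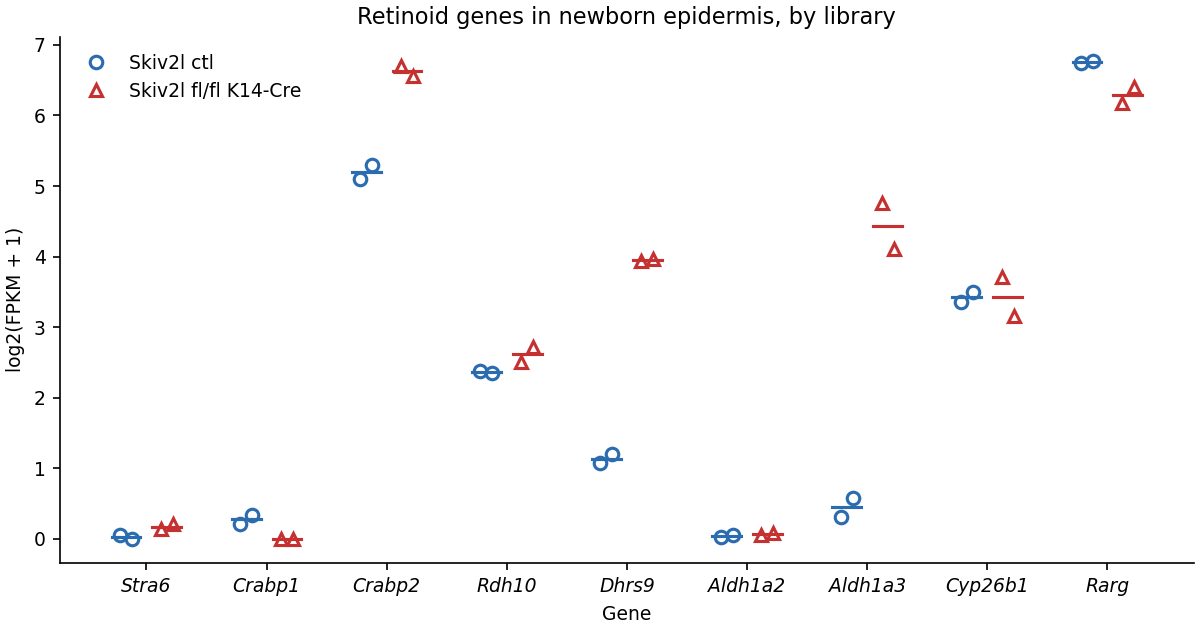
Level of each of the 9 genes in each library as log2(FPKM + 1), with circles for the 2 Skiv2l ctl pups, triangles for the 2 Skiv2l fl/fl K14-Cre pups and lines at the group means. Crabp2, Dhrs9 and Aldh1a3 sit higher in both mutant libraries, Rarg sits lower, and Cyp26b1 overlaps between the groups.

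The order of the levels differed between the groups. In the control epidermis Rarg was highest, followed by Crabp2, Cyp26b1, Rdh10, Dhrs9, Aldh1a3, Crabp1, Aldh1a2 and Stra6. Among these neighbours, Aldh1a3 and Crabp1 overlapped between libraries, as did Aldh1a2 and Stra6. In the mutant epidermis the order was Crabp2, Rarg, Aldh1a3, Dhrs9, Cyp26b1, Rdh10, Stra6, Aldh1a2 and Crabp1, and no neighbours overlapped. Expressed as a percentile among the tested genes, the mean level of Aldh1a3 was at 2.33 in the controls and 79.6 in the mutants. Aldh1a3 entered this set only through the mutant libraries, so its low percentile in the controls follows in part from the filter. The mean level of Dhrs9 was at 14.9 and 70.6, and that of Crabp2 at 87.7 and 96.9.

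The retinol receptor gene Stra6 (chromosome 9, 58063788 to 58153996, GRCm38, plus strand) was close to 0 throughout, at 0.0379 and 0 FPKM in the controls and 0.10 and 0.155 FPKM in the mutants. Only the fit with no filter on low values included it, at a log2 fold change of 0.15 (adjusted p = 0.142, limma). Of the 10 genes listed for uptake, transport and storage, which include Stra6, 4 were tested and none was called by limma. The highest of these were Dgat1, an acyltransferase that can esterify retinol, with a log2 fold change of 0.28 (adjusted p = 0.0905, limma), and Scarb1, a lipid and carotenoid receptor, with 0.26 (adjusted p = 0.0792, limma). Both were called with median scaling. Lrat, the main retinol-esterifying enzyme, was at 0 and 0.0236 FPKM in the controls and 0.108 and 0.379 FPKM in the mutants, under the level for testing.

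Most of the intracellular binding proteins were called higher. Crabp2 (chromosome 3, 87948666 to 87953376, plus strand), which delivers retinoic acid to RAR, was at 33.3 and 38.4 FPKM in the controls and at 103.0 and 93.6 FPKM in the mutants. Both mutant libraries lay above both controls, 2.74-fold on the group means (35.9 ± 3.65 and 98.3 ± 6.64 FPKM, SD, n = 2 each). The log2 fold change was 1.43 ± 0.10 (SE; adjusted p = 0.000494, limma). Crabp1 (chromosome 9, 54764748 to 54773110, plus strand), its paralog, was at 0.161 and 0.263 FPKM in the controls and at 0 in both mutants. The controls held 784 and 1324 aligned bases over its 802 exonic bases, so the difference rests on few reads. In the fit with no filter on low values its log2 fold change was -0.28 (adjusted p = 0.097, limma). Crabp2 thus made up 99.5% and 99.3% of the summed Crabp1 and Crabp2 level in the controls and 100% in both mutants.

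Of the 6 listed binding-protein genes, 5 were tested, 4 were called higher and none lower, beside 8.99% and 25.4% of all genes, and their median log2 fold change was 1.43. Fabp5, a fatty acid-binding protein that also binds retinoic acid and delivers it to PPARδ, was the most abundant, at 418 and 446 FPKM in the controls and 1641 and 1718 FPKM in the mutants (log2 fold change 1.96 ± 0.09, SE, adjusted p = 0.000124, limma). Rbp2, a retinol-binding protein better known from the intestine, went from 122.9 and 123.8 FPKM to 271 and 305 FPKM (1.21 ± 0.09, SE, adjusted p = 0.000541, limma). For both genes, as for Crabp2, the mutant libraries were above the controls with no overlap. The summed level of the list, mostly Fabp5, came to 576 and 610 FPKM in the control libraries and 2029 and 2129 FPKM in the mutants.

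Enzymes between retinol and retinal were called in both directions. Rdh10 (chromosome 1, 16105774 to 16133734, plus strand), the retinol dehydrogenase on which retinoic acid synthesis in the embryo depends, was at 4.18 and 4.09 FPKM in the controls and 4.69 and 5.58 FPKM in the mutants. The groups did not overlap, but the log2 fold change of 0.25 had a 95% interval from -0.04 to 0.55 and was not called (adjusted p = 0.15, limma). It was called only with quantile normalization of the libraries, at 0.47 (adjusted p = 0.0392, limma).

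Dhrs9 (chromosome 2, 69380445 to 69404533, plus strand), a short-chain dehydrogenase of epithelia that acts on retinol, was at 1.10 and 1.29 FPKM in the controls and 14.4 and 14.7 FPKM in the mutants. Both mutant libraries were far above both controls and close to each other, with means of 1.20 ± 0.134 and 14.5 ± 0.219 FPKM (SD, n = 2 each), a 12.1-fold difference. The log2 fold change was 2.82 ± 0.11 (SE; adjusted p = 6.07e-05, limma). The libraries held 28758 and 34745 aligned bases over the gene's 4281 exonic bases in the controls and 359022 and 372250 in the mutants. Its promoter is shown because it is the start of the gene with the smallest adjusted p of the 9, beside that of Cyp26b1, which was not called. Both are RefSeq sequences of GRCm38.p6, the 250 bases before the annotated start at chr2:69380212-69380461 on the plus strand and chr6:84593811-84594060 on the minus strand, written 5′ to 3′ along the gene. RefSeq and GENCODE M21, whose gene coordinates are given above and below, differ in the start, so that the last 17 bases shown for Dhrs9 and the last 98 for Cyp26b1 lie within the M21 gene. Capitals mark TATAAA, searched on both strands so that overlapping matches run together, and TGACTCA, the AP-1 motif.
Dhrs9: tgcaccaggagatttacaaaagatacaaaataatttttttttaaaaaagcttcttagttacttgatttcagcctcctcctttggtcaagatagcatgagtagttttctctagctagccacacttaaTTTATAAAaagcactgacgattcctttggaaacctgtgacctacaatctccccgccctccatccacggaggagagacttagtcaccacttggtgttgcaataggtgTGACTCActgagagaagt
Cyp26b1: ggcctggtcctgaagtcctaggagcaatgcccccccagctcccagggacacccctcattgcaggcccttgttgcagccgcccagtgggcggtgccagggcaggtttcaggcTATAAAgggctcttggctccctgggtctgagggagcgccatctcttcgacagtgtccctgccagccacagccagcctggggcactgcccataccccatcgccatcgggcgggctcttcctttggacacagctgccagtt
Both windows hold TATAAA, which 13.616% of all 32851 promoter windows of 300 bases in the RefSeq table hold, and that of Dhrs9 holds TGACTCA, which 5.202% hold. This TGACTCA runs from -18 to -12 relative to the RefSeq start, so all its bases but the first lie within the M21 gene. The half-sites searched on both strands were AGGTCA and its variants, of which the first was AGTTCA while the next was GGGTCA and the last of them was GGTTCA. No direct repeat of these spaced by 1, 2 or 5 bases, the arrangement RAR and RXR bind, was found in either window. Such repeats occur in 0.222%, 0.268% and 0.097% of all windows for the respective spacings. The window of Dhrs9 holds a lone half-site, and 43.706% of all windows hold at least 1. A match or its absence describes only these letters. Promoters of Crabp1, Stra6, Aldh1a2 and Rarg are in the same table, so that 6 of the 9 genes matched, and those of Crabp2, Aldh1a3 and Rdh10 are named only.

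Of the 20 listed oxidoreductase genes, which include Rdh10 and Dhrs9, 18 were tested. Dhrs9 was the only one called higher (5.56%), 5 were called lower (27.8%), and 12 were not called, near the 8.99% and 25.4% of all genes. The median log2 fold change was -0.07. Dhrs3, which reduces retinal back to retinol, was at 26.3 and 28.2 FPKM in the controls and 16.1 and 18.7 FPKM in the mutants (log2 fold change -0.62 ± 0.10, SE, adjusted p = 0.00759, limma). Sdr16c5, an epidermal retinol dehydrogenase, fell from 73.6 and 81.6 FPKM to 37.1 and 35.3 FPKM (-1.08 ± 0.09, SE, adjusted p = 0.000778, limma). In both genes the mutant libraries lay below the controls without overlap. Adh1, an alcohol dehydrogenase that also oxidizes retinol, was at 80.2 and 77.7 FPKM and then 35.3 and 45.1 FPKM (-0.97, adjusted p = 0.00325, limma), with an adjusted p of 0.0504 without the first control. Dhrs4, a retinol dehydrogenase and retinal reductase, had a log2 fold change of -0.66 (adjusted p = 0.0125, limma) and Rdh1, a retinol dehydrogenase, -0.82 (adjusted p = 0.0211, limma). The calls of Dhrs3, Dhrs4 and Rdh1 were lost when either control library was left out, with adjusted p values between 0.0633 and 0.143. With no filter on low values these calls and that of Adh1 were lost too (adjusted p between 0.0762 and 0.177), and that of Rdh1 was lost with median scaling (adjusted p = 0.0511). Rdh12, which reduces retinal, was at 34.1 and 38.8 FPKM in the controls and 33.8 and 37.2 FPKM in the mutants (-0.04, adjusted p = 0.8, limma).

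Of the 4 listed retinal dehydrogenases only Aldh1a3 was tested, and it passed the level only through the mutant libraries. Aldh1a3 (chromosome 7, 66390890 to 66427517, minus strand) was at 0.243 and 0.498 FPKM in the controls and at 26.2 and 16.3 FPKM in the mutants. The mutant libraries were both far above the controls but differed from each other more than for Dhrs9, with means of 0.370 ± 0.181 and 21.2 ± 7.0 FPKM (SD, n = 2 each). The ratio of the means was 57.3, or 87.4 against the first control alone and 42.6 against the second, and the log2 fold change 3.99 ± 0.23 (SE; adjusted p = 0.000249, limma). With a pseudocount of 0.1 the fold change was 5.52 on the log2 scale. Of the 75-base stretches of its transcripts, 0.587% occur in other genes, and none did for the other 8 genes. The stretch length was a setting that may differ from the read length, so confusion of reads with other genes was not measured directly.

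The other retinal dehydrogenases were low in every library. Aldh1a2 (chromosome 9, 71215789 to 71296243, plus strand), the main enzyme of the early embryo, was at 0.0161 and 0.0420 FPKM in the controls and 0.0393 and 0.0595 FPKM in the mutants. The groups overlapped, on at most 799 aligned bases in a library over 2264 exonic bases. Aldh1a1 was at 0.385 and 0.301 FPKM in the controls and 0.0332 and 0.0407 FPKM in the mutants, and Aldh8a1 did not exceed 0.117 FPKM in any library. Neither was tested. Aldh1a3 made up 37.7% and 59.2% of the summed level of Aldh1a1, Aldh1a2 and Aldh1a3 in the controls and 99.7% and 99.4% in the mutants.

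The gene for breakdown was not called. Cyp26b1 (chromosome 6, 84571414 to 84593908, minus strand), which hydroxylates retinoic acid, was at 9.28 and 10.3 FPKM in the controls and at 12.1 and 7.96 FPKM in the mutants. The mutant libraries lay on either side of the controls. The log2 fold change was 0.00 ± 0.19 (SE) with a 95% interval from -0.45 to 0.45 (adjusted p = 0.994, limma). A change of up to that size in either direction was therefore not excluded. Its sign depended on the setting and the library left out, from -0.27 without the first mutant library to 0.27 without the second. The other hydroxylases, Cyp26a1 and Cyp26c1, did not exceed 0.0814 FPKM in any library, and Cyp26b1 made up at least 98.7% of the summed level of the 3 genes in each.

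**Figure D2:**
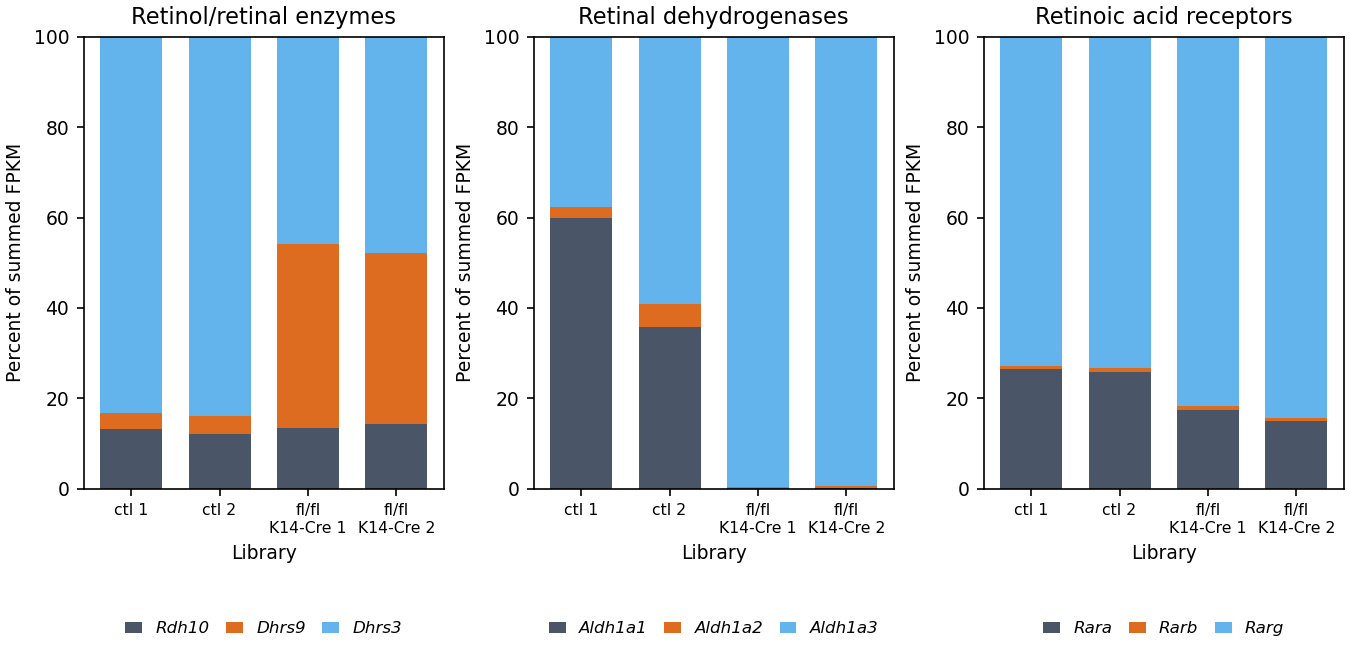
Percent of the summed FPKM that each gene contributed in each library, for Rdh10, Dhrs9 and Dhrs3, for the 3 retinal dehydrogenases and for the 3 retinoic acid receptors. Dhrs9 and Aldh1a3 take larger shares in both Skiv2l fl/fl K14-Cre libraries, while Dhrs3 and Rara take smaller ones.

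Shares within a library do not move with its overall scaling. Dhrs9 made up 3.50% and 3.85% of the summed level of Rdh10, Dhrs9 and Dhrs3 in the controls and 40.8% and 37.7% in the mutants. Over all 20 listed oxidoreductases, which include the abundant Sdr16c5, Adh1 and Rdh12, it made up 0.344% and 0.371% in the controls and 5.9% in each mutant. Among the 3 genes, the share of Dhrs3 went from 83.3% and 84.0% to 45.8% and 48.0%, whereas that of Rdh10 was 13.2% and 12.2% and then 13.4% and 14.3%. Within this sum Dhrs3 thus lost share and Dhrs9 gained it, with no overlap between groups. Rdh12 and Dhrs4, which can also reduce retinal, are outside the sum. The shares of Dhrs9 and Dhrs3 were added to the planned share of Rdh10. Each of the shares tested gave p = 0.33 in the two-sided exact permutation test, the smallest p that 2 against 2 libraries allow.

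Rarg (chromosome 15, 102234938 to 102257517, minus strand), the RAR gene with the highest level in both groups, was at 106.6 and 108.6 FPKM in the controls and 71.4 and 84.0 FPKM in the mutants. Both mutant libraries lay below both controls, with means of 107.6 ± 1.41 and 77.7 ± 8.93 FPKM (SD, n = 2 each). The log2 fold change was -0.47 ± 0.10 (SE; adjusted p = 0.0166, limma). With median scaling it was -0.26 (adjusted p = 0.126, limma), and without the first or the second control library the adjusted p was 0.104 and 0.113, as it was 0.113 with no filter on low values. The median of all genes was itself at -0.20, and it moved to -0.03 with that scaling.

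Of the 7 listed receptor genes, which include Ppard, 6 were tested, 3 were called lower and 1, Ppard, higher. Of all genes, 25.4% were called lower and 8.99% higher. The median of the list was -0.33, or -0.18 with median scaling. Its subset of 6 RAR and RXR genes leaves out Ppard. Of this subset 5 were tested, 3 were called lower and none higher, with a median of -0.43, or -0.22 with median scaling. With median scaling Rara alone of the subset was called lower, beside 1623 of all 13609 genes. Rara fell most, from 38.7 and 38.3 FPKM to 15.1 and 15.0 FPKM (log2 fold change -1.30 ± 0.08, SE, adjusted p = 0.000331, limma), and was called lower under all 13 alternative settings. Rxra, the main RXR of epidermis, was at 98.7 and 104.1 FPKM and then 75.1 and 74.7 FPKM (-0.43, adjusted p = 0.01, limma), and this call was lost with median scaling (-0.22, adjusted p = 0.0811, limma) and when either control was left out (adjusted p = 0.0654 and 0.0874). Rarb, itself a retinoic acid target, was low at 1.19 and 1.05 FPKM in the controls and 0.894 and 0.708 FPKM in the mutants (-0.24, adjusted p = 0.231, limma). Rarg made up 72.8% and 73.4% of the summed receptor level in the controls and 81.7% and 84.3% in the mutants. Ppard, which encodes PPARδ, a fatty acid receptor that can also be activated by retinoic acid carried by FABP5, was higher, at 45.8 and 39.9 FPKM and then 69.3 and 62.4 FPKM (0.61, adjusted p = 0.00803, limma). Without the second control the adjusted p for Ppard was 0.0746, and with no filter on low values 0.0864. The 6 listed coregulators had a median log2 fold change of -0.17, near the -0.20 of all tested genes.

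Of 19 genes listed as textbook targets of retinoic acid, several of which are themselves in the lists above, 12 were tested. Called higher were 2 of them (16.7%) and called lower 1 (8.33%), beside 8.99% and 25.4% of all genes, and the median was 0.03. Crabp2 was among those called higher, and Dhrs3 was the one called lower. Hbegf, a growth factor induced by retinoids in epidermis, was at 4.98 and 2.32 FPKM in the controls and 9.40 and 5.98 FPKM in the mutants, a log2 fold change of 0.93 (adjusted p = 0.0613, limma). It was called with median scaling (adjusted p = 0.0452), quantile normalization (0.0441) and a replicate block (0.00181), and ranged from 0.51 without the second control to 1.36 without the first. The keratin Krt4 was at 0.312 and 3.41 FPKM in the controls and 0.0968 and 0.400 FPKM in the mutants, so that the groups overlapped (-0.96, adjusted p = 0.198, limma). The value was -1.83 without the first control (adjusted p = 0.0234) and -0.08 without the second (adjusted p = 0.789), and the replicate block called it (adjusted p = 0.0424).

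Over the pathway genes other than the 9, 41 of 57 were tested. Of these, 4 or 9.76% were called higher and 8 or 19.5% lower, near the 8.99% and 25.4% of all tested genes, and their median was -0.08. With median scaling 9 were called higher and 5 lower. The genes called higher included Rbp2, Fabp5 and Ppard. Rbp4, the carrier of retinol in blood, was at 0 in every library.

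**Figure D3:**
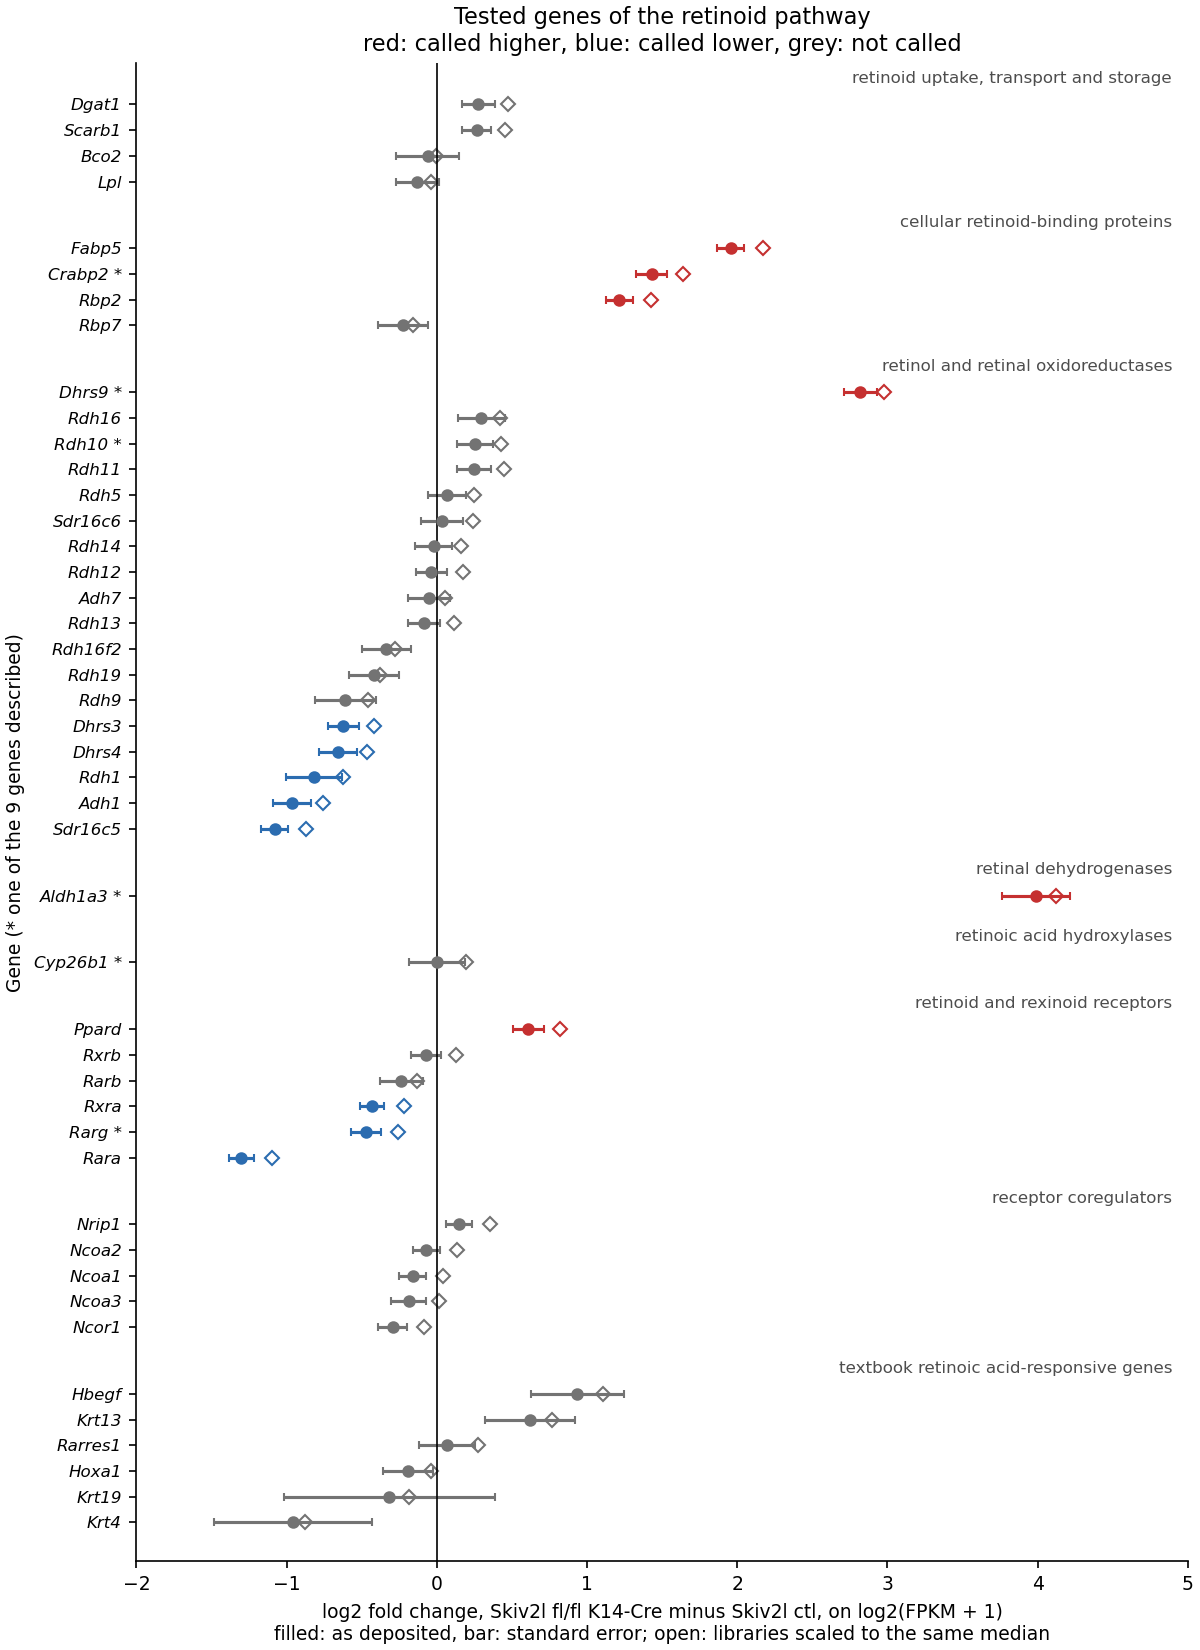
Log2 fold change of the tested pathway genes reported here, Skiv2l fl/fl K14-Cre minus Skiv2l ctl, by role, with standard errors (filled points, 2 pups per group) and the value with median scaling (open points); stars mark the 9 genes. Fabp5, Crabp2, Rbp2, Dhrs9 and Aldh1a3 lie far to the right, while the receptors other than Ppard lie left of 0 as deposited, where Rxrb moves to the right with median scaling.

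Likeness was measured as the distance between log2(FPKM + 1) values over the 4 libraries. The genes nearest to Aldh1a3, which had the largest rise of the 9, were 2300002M23Rik at 0.825, the beta-defensin Defb4 at 0.854 and Tmem45b at 0.917. Those nearest to Rarg, the only one of the 9 called lower, were the phosphatase gene Ctdsp2 at 0.121 and the transcription factors Irx2 at 0.131 and Klf5 at 0.156. The distance describes 4 libraries.

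In bulk epidermis, fewer cells of a type and less RNA per cell cannot be told apart. The 9 keratinocyte markers were all tested, with Krt14 and Dsg3 called higher and Krt1 and Lor lower. Their summed level was 30859 and 32013 FPKM in the control libraries and 27994 and 30897 FPKM in the mutants. That sum was mostly Krt1 and Krt10 and hides shifts in both directions. Krt14 was at 1736 and 1812 FPKM in the controls and 7381 and 7312 FPKM in the mutants. Lor was at 828 and 867 FPKM and then 448 and 444 FPKM. Markers of some other cells were lower in the mutants, beside the 25.4% of all genes called lower. Dermal fibroblast markers summed to 245 and 248 FPKM in the controls and to 117 and 130 FPKM in the mutants, with 4 of 7 tested called lower. The sum was mostly Dcn, Vim and Postn, whereas Pdgfra was at 0.299 and 0.25 FPKM in the controls and 0.789 and 0.668 FPKM in the mutants and was not called. Hair follicle markers summed to 91.6 and 126 FPKM and then 59.6 and 61.0 FPKM, with 4 of 10 called lower, and leukocyte markers to 42.6 and 56.6 FPKM and then 28.5 and 24.0 FPKM, with 4 of 7 called lower. Dermal papilla markers other than Crabp1 summed to 2.37 and 3.39 FPKM in the controls and 3.87 and 3.16 FPKM in the mutants, with none of 2 called. Of the defining markers, Col1a1 was under 1.27 FPKM and Lum under 0.138 FPKM in every library, and the Langerhans cell marker Cd207 was at 0.0401 and 0.0417 FPKM in the controls and 0 in the mutants. The part of these cells in the lower values of Rarg, Rara, Crabp1 and Aldh1a1 was not tested.

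For the other lists, sebaceous gland markers summed to 193 and 239 FPKM in the controls and 211 and 191 FPKM in the mutants, and melanocyte markers to 58.2 and 64.6 FPKM and then 60.8 and 75.7 FPKM. Erythroid markers summed to 95.7 and 88.8 FPKM and then 43.8 and 56.7 FPKM, with 3 of 4 tested called lower. Skeletal muscle and endothelium had 1 tested marker each. Of the adipocyte markers the 1 tested was Fabp4, called higher, which took the sum from 1.80 and 1.49 FPKM to 55.8 and 57.8 FPKM while Adipoq and Cidec, which define fat cells, were at 0.

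**Figure D4:**
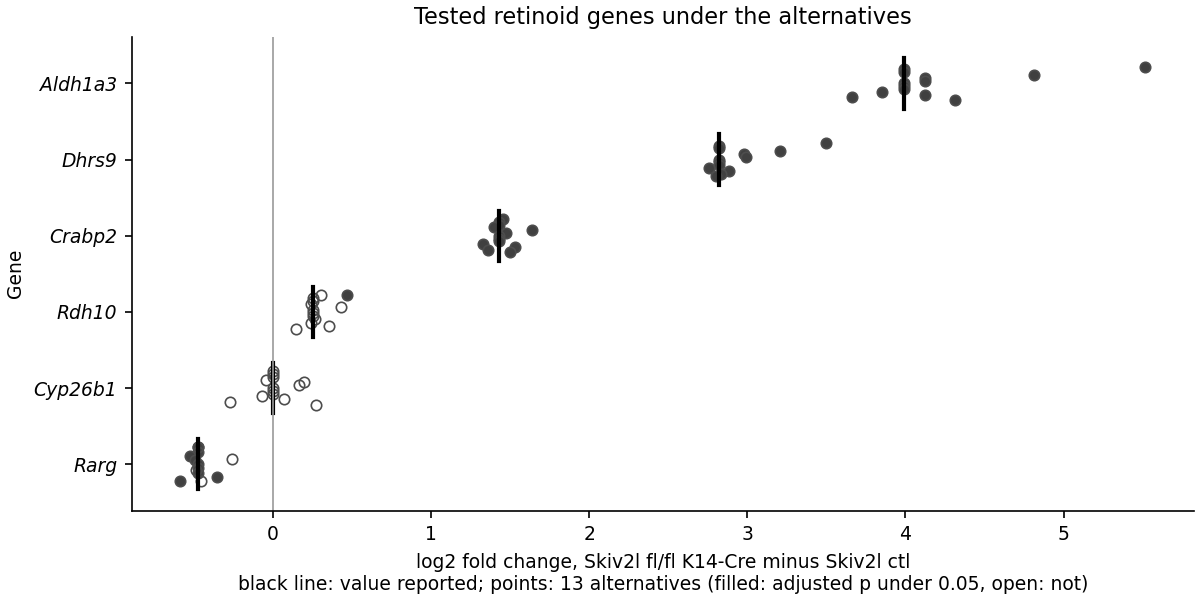
Log2 fold change of the 6 tested genes under 13 alternative settings, with filled points where the adjusted p was under 0.05 and a black line at the value reported. Crabp2, Dhrs9 and Aldh1a3 were called throughout, Rarg lost its call in 4 settings and Cyp26b1 fell on both sides of 0.

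Across the alternative settings the fold change of Crabp2 was between 1.33 and 1.64, that of Dhrs9 between 2.76 and 3.50 and that of Aldh1a3 between 3.66 and 5.52. Each kept its call in all 13, with highest adjusted p values of 0.041, 0.0283 and 0.0422 (limma). Those highest values came from the fit without a filter on low values.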

How the data were processed

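RNA was measured in 4 libraries of epidermis, 2 Skiv2l ctl and 2 Skiv2l fl/fl K14-Cre. The authors aligned the reads to GRCm38 (submitters' processing notes) with an RNASeq workflow whose aligner, versions and strand setting are not given in the sources used here, and for each library a table was deposited that gives the coverage, FPKM and TPM of every gene, per the file headers. FPKM values were summed per gene identifier, and genes annotated as protein-coding in GENCODE M21 with FPKM above 0.5 in at least 1 library were tested. No counts were used here, so log2(FPKM + 1) was fitted by the moderated linear models of limma 3.58.1 (R 4.3.3; prior variance following the mean level). Two-sided p-values were adjusted over 13609 genes by the Benjamini-Hochberg method, and an adjusted p under 0.05 made a call. The scripts were tested on simulated data. The deposited coverage divided by FPKM gave the aligned bases per library, and TPM served as an alternative. Arithmetic means and SDs are of FPKM, and shares were compared by an exact permutation test.

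The 9 genes and all lists were chosen with earlier results of these data known. Named genes were the 9, Skiv2l, and in each list those with the largest absolute fold change, up to 4; Lrat, Rdh12, Rarb, Aldh1a1, Rbp4 and the genes named as sole calls were added to complete a family or name a count after their values were seen. The alternatives changed the pseudocount to 0.1, the filter to FPKM over 1 in 2 libraries or to none, and otherwise used median and quantile scaling, TPM, no variance trend, all gene types, a replicate block and leaving out each library. Values of some pathway genes are not reported here, although the counts and medians of the lists include them.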

Additional observations from a re-analysis of the deposited data

How the results depend on the processing

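Crabp2, Dhrs9 and Aldh1a3 kept their direction and call under all 13 alternatives. Without a filter on low values, 475 genes were called higher and 927 lower, none of the 9 genes was lower (0) and 4 pathway genes were lower. With median scaling, 1894 genes were called higher and 1623 lower, 0 of the 9 were lower, and 9 pathway genes were higher and 5 lower. With quantile normalization, 1917 genes were called lower and 8 pathway genes higher. Leaving out 1 library at a time gave 497 to 1146 genes higher and 805 to 3135 lower, with 0 to 1 of the 9 lower and 3 to 8 pathway genes lower. The lowest values came without 1 of the controls, where the lone control was assumed to vary like the mutants. The sign reversed for Cyp26b1 with a pseudocount of 0.1 (-0.00040), TPM (-0.046) and without the first control (-0.07) or first mutant (-0.27). It also reversed for Lpl (0.037) and Bco2 (0.090) with quantile normalization, for Bco2 without the second control (0.08) or second mutant (0.17), and for Ncoa3 (0.013) and Ncoa1 (0.040) with median scaling. Over the libraries left out, Cyp26b1 ranged from -0.27 to 0.27 and Bco2 from -0.29 to 0.17. The cause was not tested. With 2 pups per group, replicate numbers gave no known pairing (correlation of same-numbered deviations -0.077). With a replicate block, 1264 genes were called higher and 3393 lower, and the calls of the 9 genes were the same. The low levels of Stra6, Crabp1 and Aldh1a2 limit what could be seen of them.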
